A study of Mus musculus with 2 samples.

Results

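In 1 mouse lymphoma, called T6, 172 of 53593 DNaseI sites lay in 4 regions. At a joining distance of 12.5 kb these hold some of the longest runs of accessible sites in the list. The regions carry the names of 5 genes: Hvcn1 and Ppp1cc on chromosome 5, Klf13 on chromosome 7, Zfp217 on chromosome 2 and Cxxc5 on chromosome 18. They were chosen by the length of the site clusters in this same list, where sites at most 12.5 kb apart were joined, so that length, number of sites and spacing are given here as descriptions and support nothing. A site counted when it overlapped a region by 1 bp or more. The regions, in mm9 and counted from 1, were chr5:122500000-122760000 with 46 sites, chr7:71000000-71230000 with 41, chr2:169900000-170180000 with 54 and chr18:35950000-36140000 with 31. The link between each region and its genes comes with the definition of the regions. An mm9 gene annotation was not used here, so the sites were not placed at gene starts, exons or introns, and the labelled cell type was not checked against marker genes.

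The tumour was an untreated Eμ-myc lymphoma on the C57/Bl6 background, Arf-/- and Trp53+/+, labelled as B cells from lymph nodes. In the Eμ-myc model the immunoglobulin heavy chain enhancer drives Myc in B lineage cells, Arf is an upstream activator of p53, and the study as titled concerns p53-induced regression of such tumours. The cells were taken from lymph nodes by pressing and were not purified, so other cells of the node may contribute. The series has 2 libraries, DNaseI and input; the site list of the DNaseI library was analysed, the input library was not, and there was no replicate.

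DNaseI cuts most readily where nucleosomes are missing or displaced, as at active promoters, enhancers and insulators. Long runs of such sites are known around genes of cell identity and around genes with many distal elements, and the distance at which neighbours are joined is a convention and not a property of chromatin. Hvcn1 encodes the voltage-gated proton channel Hv1, which supports B cell receptor signalling and, in phagocytes, the oxidative burst. Ppp1cc encodes the gamma catalytic subunit of protein phosphatase 1, a broadly expressed serine/threonine phosphatase. Klf13 encodes a Krüppel-like zinc finger factor that binds GC-rich DNA and is known from lymphocytes as RFLAT-1. Zfp217 encodes a zinc finger factor that works with co-repressors, and its human counterpart is amplified in carcinomas. Cxxc5 encodes a CXXC zinc finger protein that binds unmethylated CG-rich DNA and restrains Wnt signalling.

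All 5 genes were found in RefSeq's gene list for a later mouse assembly, GRCm38.p6, which was used for gene order alone. Hvcn1 and Ppp1cc are near neighbours there, with the predicted gene Gm52787 between them. Beyond Hvcn1 follow Tctn1, Pptc7, Rad9b, Vps29 and Fam216a, and on the other side of Ppp1cc lie Ccdc63, Myl2, Cux2, Pheta1 and Sh2b3. Klf13 stands between Otud7a and Chrna7 on one side and E030018B13Rik, Gm45988, Trpm1, Mtmr10 and Fan1 on the other. Zfp217 stands between Tshz2 and Bcas1, with Zfp64 and Sall4 beyond the former and Cyp24a1 and Pfdn4 beyond the latter. Cxxc5 stands between Ube2d2a and Psd2, followed by Sting1 on the former side and Nrg2 and Pura on the latter. Which of these neighbours lie under the clusters was not determined.

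The promoter stretches that the RefSeq table holds for the named genes are printed here because they show what DNA the gene starts consist of. They were available for 3 of the 5 genes, Ppp1cc, Klf13 and Zfp217 with 2 starts. Each is the 250 bases before the start, 5′ to 3′ on the strand of the gene, with every CG dinucleotide in capitals. Their GRCm38.p6 coordinates cannot be set beside the mm9 sites, and whether a DNaseI site covers them was not determined. Ppp1cc is at chr5:122158025-122158274 (plus strand), Klf13 at chr7:63938916-63939165 (minus strand), and Zfp217 at chr2:170131221-170131470 and chr2:170142676-170142925 (both minus strand).
Ppp1cc: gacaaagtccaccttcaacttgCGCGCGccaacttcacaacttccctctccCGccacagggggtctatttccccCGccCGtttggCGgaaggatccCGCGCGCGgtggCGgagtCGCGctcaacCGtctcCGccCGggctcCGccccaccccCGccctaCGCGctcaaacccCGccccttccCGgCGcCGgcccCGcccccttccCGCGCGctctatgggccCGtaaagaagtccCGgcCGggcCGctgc
Klf13: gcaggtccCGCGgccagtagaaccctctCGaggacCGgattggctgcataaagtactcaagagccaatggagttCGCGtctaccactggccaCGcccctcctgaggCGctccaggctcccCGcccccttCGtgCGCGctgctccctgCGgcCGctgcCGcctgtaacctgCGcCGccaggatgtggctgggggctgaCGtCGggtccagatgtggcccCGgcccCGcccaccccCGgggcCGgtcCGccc
Zfp217, start at the lower coordinate: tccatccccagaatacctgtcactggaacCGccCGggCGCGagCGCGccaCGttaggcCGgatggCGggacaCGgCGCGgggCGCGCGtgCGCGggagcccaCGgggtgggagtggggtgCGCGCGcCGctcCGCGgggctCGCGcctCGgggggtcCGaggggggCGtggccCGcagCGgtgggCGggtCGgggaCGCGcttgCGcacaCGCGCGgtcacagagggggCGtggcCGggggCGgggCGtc
Zfp217, start at the higher coordinate: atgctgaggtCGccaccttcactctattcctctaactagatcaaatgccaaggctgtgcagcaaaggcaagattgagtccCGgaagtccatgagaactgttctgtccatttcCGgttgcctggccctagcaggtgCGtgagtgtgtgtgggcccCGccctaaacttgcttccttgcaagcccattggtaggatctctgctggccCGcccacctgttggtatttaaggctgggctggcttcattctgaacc

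The 4 stretches differed widely in CG content. The Ppp1cc stretch held 33 CG dinucleotides, Klf13 held 24, and the Zfp217 starts held 43 at the lower and 6 at the higher coordinate. The median over 32851 RefSeq promoter stretches of the same length was 6, and 96.0%, 88.0%, 99.3% and 49.6% of them had fewer than these 4 stretches in that order. The GC box GGGCGG, searched on both strands and itself containing a CG, was found 6, 3, 3 and 2 times, and 32.7% of all stretches held it at least once. The E-box CACGTG, a motif that Myc and Max bind, reads alike on both strands; it was not found in these 4 stretches, and 6.02% of all stretches held it.

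The region of Hvcn1 and Ppp1cc held the longest cluster of the list. It ran from 122529930 to 122736306, over 206.4 kb, with 44 sites that covered 42.3 kb or 20.5% of it. The sites were unevenly placed. Cut into 4 equal parts of 51.6 kb, the cluster had 10, 7, 16 and 11 sites, and sites covered 11.7%, 16.1%, 29.0% and 25.2% of the parts. The sparse side was therefore the one with the lower coordinates.

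The third part of that cluster held its densest stretch. Between 122656787 and 122671217, 11 sites followed each other with no gap above 2 kb. They took up 59.6% of 14.4 kb, or 25% of the sites of the cluster in 6.99% of its length. None of these 11 was wide (over 1500 bp) and 3 were narrow (under 400 bp), and the gaps among them went down to 70 bp. In the whole list, 6 groups joined at 2 kb had 11 or more sites, this one included, and 1107 had 4 or more.

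The wide sites of the Hvcn1 and Ppp1cc cluster lay outside that stretch. The widest site of all 4 regions, 4115 bp at chr5:122681444-122685558, began 151.5 kb from the cluster start, where the run of 11 had ended at 141.3 kb, and had gaps of 2.77 and 4.02 kb to its neighbours. In the whole list, 91 sites were wider than 4000 bp. The next widest of this region were 2159 bp at chr5:122713495-122715653 and 2085 bp at chr5:122580304-122582388. Of the 7 wide sites, 3 lay 50.4 to 77.7 kb from the cluster start and 4 lay 151.5 to 204.8 kb from it, and no wide site lay in the 72.3 kb between these sets. The cluster opened with a site of 413 bp and closed with one of 1577 bp.

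The Klf13 region held the second longest cluster, which was also the most thinly covered of the 4. It ran from 71027060 to 71205074, over 178.0 kb, with 35 sites that covered 28.9 kb or 16.2%. Its 4 equal parts held 11, 7, 9 and 8 sites, with 18.1%, 15.1%, 16.1% and 15.6% covered, so the sites were spread more evenly than around Hvcn1 and Ppp1cc. No run of 4 or more sites stayed within gaps of 2 kb. The widest sites were 2461 bp at chr7:71055404-71057864, 2131 bp at chr7:71080916-71083046 and 1850 bp at chr7:71083203-71085052, the last 2 only 156 bp apart. Another wide site, of 1814 bp, followed 108.0 kb further on, at chr7:71193043-71194856. The end sites of the cluster were small, 312 bp at the start and 249 bp at the end, and 249 bp is the smallest width in the whole list.

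The Zfp217 region held the most sites and the third longest cluster. The cluster ran from 169973338 to 170150120, over 176.8 kb, with 41 sites that covered 39.2 kb or 22.2%. Its 4 equal parts held 10, 8, 12 and 11 sites, with 22.9%, 18.7%, 22.8% and 24.4% covered. It had 8 wide sites, and the distances between them ran from 10.2 to 48.9 kb with a median of 14.4 kb. In the Cxxc5 cluster, 7 wide sites lay 0.891 to 27.4 kb apart, with a median of 15.9 kb. The widest site at Zfp217 was 3221 bp at chr2:169978225-169981445, near the start of the cluster. The next inside that cluster was 2625 bp at chr2:170077571-170080195.

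Of the 41 sites in the Zfp217 cluster, 15 were narrow (36.6%, exact binomial 95% interval 22.1 to 53.1%). The interval contains the 30.5% of the whole list, so a higher share of narrow sites was not shown here. Some of them flanked a wide site at short distance: in the 3.54 kb from 170114660 to 170118199, a site of 1986 bp stood among sites of 302, 300 and 340 bp, and together they covered 82.7% of the stretch. Further groups of 4 sites joined at 2 kb lay at 170097757 to 170103562 and at 170141997 to 170150120, the latter at the end of the cluster. The 13 sites of the region outside the cluster included one of 2636 bp at chr2:170172327-170174962, the second widest of the region. The first site of the cluster measured 276 bp and the last 1071 bp.

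The Cxxc5 region held the shortest of the 4 clusters and most of the sites over 3000 bp. The cluster ran from 35970168 to 36119427, over 149.3 kb, and its 31 sites were all those of the region. They covered 35.0 kb or 23.5%. In this cluster 3 sites exceeded 3000 bp: 3377 bp at chr18:36096522-36099898, 3310 bp at chr18:36077732-36081041 and 3175 bp at chr18:36047120-36050294. These 3 sites alone made up 28.2% of the covered bases, and without them 16.9% of the cluster would be covered. Over the 4 regions, 5 of 172 sites were wider than 3000 bp, and in the whole list 0.629% were.

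Sites at Cxxc5 were most numerous in the first and last of 4 equal parts of the cluster, but not at its very ends. Its 4 equal parts held 11, 6, 5 and 9 sites, and the covered shares were 28.3%, 14.9%, 23.1% and 27.5%. The third part thus had the fewest sites but not the lowest coverage, and the sites of 3175 and 3310 bp lay in it. A group of 7 sites joined at 2 kb, from 36087087 to 36102925, held 2 wide sites and 25.4% of the covered bases in 10.6% of the length. A second group of 4 sites lay at 35997034 to 36001331. The cluster opened with a site of 460 bp and closed with one of 1113 bp. Its outermost sites were spaced out, with gaps of 4.523, 4.883 and 5.706 kb at the start and 9.538 and 5.575 kb at the end.

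**Figure D1:**
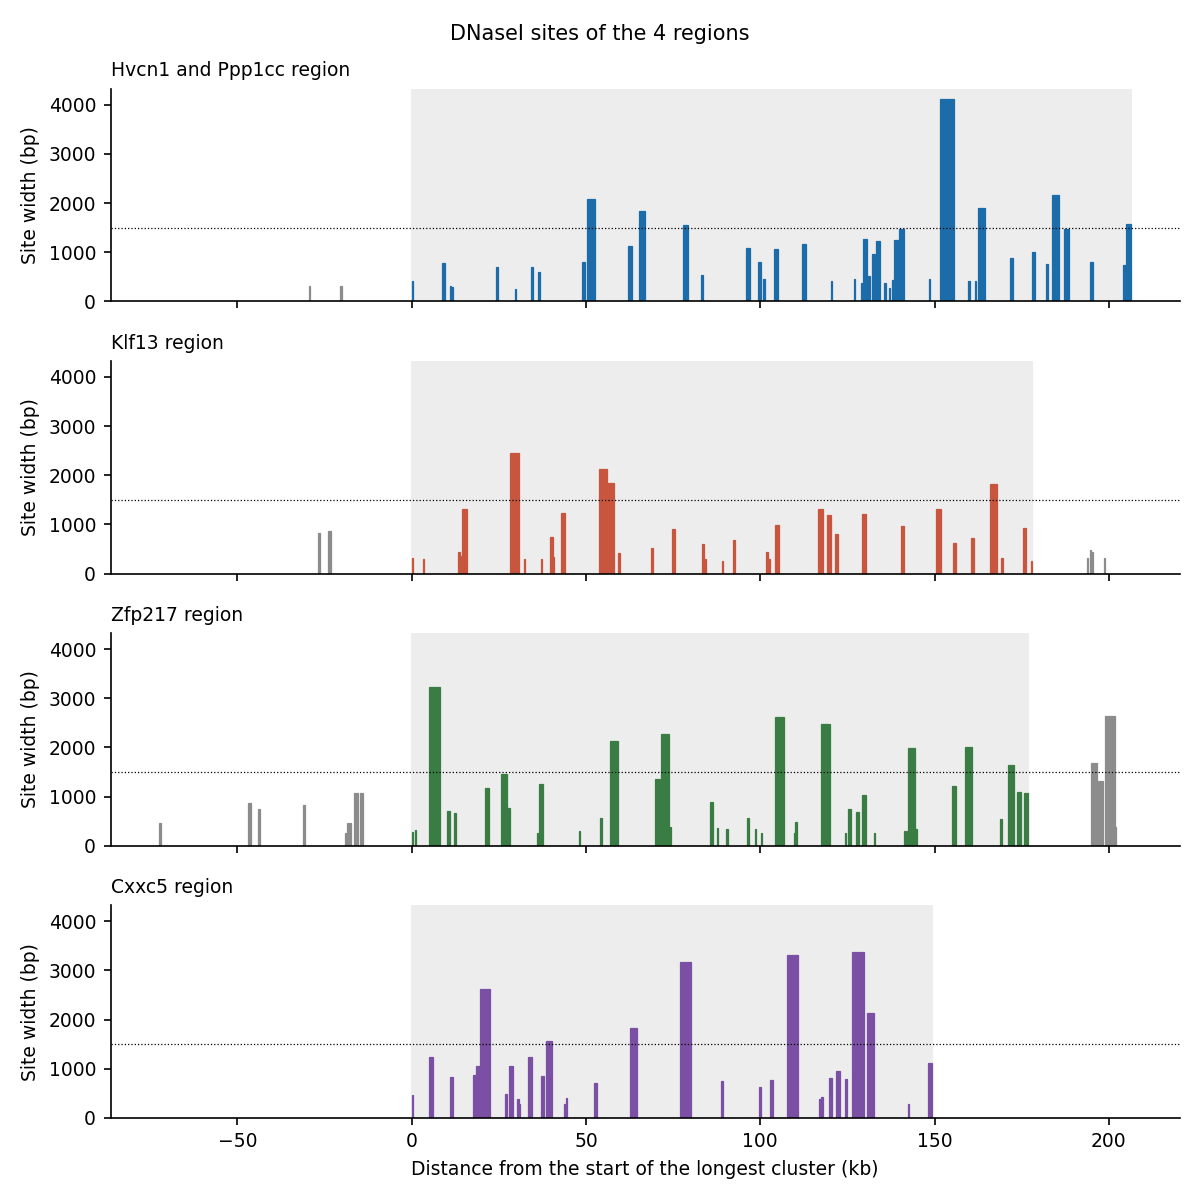
Each bar is 1 DNaseI site, with its width in bp on the vertical axis and its distance from the start of the longest cluster in kb on the horizontal axis; the shaded span is the cluster, coloured bars are its sites, grey bars are other sites of the region, and the dotted line marks 1500 bp. The site of 4115 bp stands alone in height in the Hvcn1 and Ppp1cc panel, and the Cxxc5 panel has 3 sites over 3000 bp.

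Taken over the whole regions, densities were close. There were 1.77 sites per 10 kb at Hvcn1 and Ppp1cc (46 sites, exact Poisson 95% interval 33.7 to 61.4), 1.78 at Klf13 (41 sites, 29.4 to 55.6), 1.93 at Zfp217 (54 sites, 40.6 to 70.5) and 1.63 at Cxxc5 (31 sites, 21.1 to 44.002). Sites covered 16.5%, 13.98%, 18.4% and 18.4% of the regions in that order. The Klf13 region was the lowest by coverage but not by number of sites, and the bounds of the regions, which are round numbers, enter all these values.

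The median site widths of the 4 regions had overlapping intervals. At Hvcn1 and Ppp1cc the median was 769.5 bp (95% interval 464 to 1074, 46 sites), with 622 bp (428 to 902, 41 sites) at Klf13, 726 bp (464 to 1067, 54 sites) at Zfp217 and 825 bp (624 to 1113, 31 sites) at Cxxc5. The intervals come from order statistics and overlap between every pair of regions. Overlap does not measure a difference, and no order of the medians is claimed. Over the 4 regions the median was 751.5 bp (622 to 830, 172 sites), and the 663 bp of the whole list lay inside that interval. Sites of 1 library that lie side by side are not independent replicates, so no test was made, and the intervals cover counting error only.

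The shares of wide and narrow sites had 95% intervals that overlapped between the regions. Overlap does not measure a difference, and differences between regions were not tested. In the whole list 11.4% of sites were wide and 30.5% were narrow. Wide sites were 7 of 46 at Hvcn1 and Ppp1cc (15.2%, exact binomial 95% interval 6.34 to 28.9%), 4 of 41 at Klf13 (9.76%, 2.72 to 23.1%), 10 of 54 at Zfp217 (18.5%, 9.25 to 31.4%) and 7 of 31 at Cxxc5 (22.6%, 9.59 to 41.1%). Each of these intervals contains the share of the whole list. Summed over the 4 regions, wide sites were 28 of 172 (16.3%, 11.1 to 22.7%), an interval that still holds it. Within the 4 clusters alone they were 26 of 151 (17.2%, 11.6 to 24.2%), which lies just above it. Over all 656 clusters they were 14.2%. Site widths add to the length by which the clusters were chosen, so these shares are descriptions only. Narrow sites were 8 of 46 at Hvcn1 and Ppp1cc (17.4%, 7.82 to 31.4%), 13 of 41 at Klf13 (31.7%, 18.1 to 48.1%), 17 of 54 at Zfp217 (31.5%, 19.5 to 45.6%) and 5 of 31 at Cxxc5 (16.1%, 5.45 to 33.7%). The Hvcn1 and Ppp1cc region and the Cxxc5 region had the lower values, but the intervals of all 4 regions overlap and contain the share of the whole list.

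Wide sites made up 36.0% of the covered bases of the cluster at Hvcn1 and Ppp1cc, 28.5% at Klf13, 46.9% at Zfp217 and 51.4% at Cxxc5. Narrow sites made up 4.42%, 11.4%, 11.6% and 4.62% in the same order. Klf13 and Zfp217 thus had a similar part in narrow sites and a different part in wide ones. These shares rest on 4 to 8 wide sites each and carry no interval.

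Spacing inside the clusters was much alike in the 4 regions. Neighbouring sites stood a median of 2.29 kb apart at Hvcn1 and Ppp1cc (43 gaps), 3.23 kb at Klf13 (34 gaps), 2.21 kb at Zfp217 (40 gaps) and 2.63 kb at Cxxc5 (30 gaps). The quartiles were 0.686 and 6.51 kb, 1.29 and 7.63 kb, 0.885 and 5.53 kb, and 1.004 and 5.67 kb. Very short gaps of under 500 bp occurred in each cluster, 7, 6, 8 and 5 times, and the shortest were 70, 52, 81 and 60 bp. Together the very short gaps were 26 of 147 (17.7%). Their share was 24.8% over all clusters of 10 or more sites and 17.0% over the whole list. At Klf13 no gap lay between 0.277 and 1.18 kb, so its sites were either almost adjoining or more than 1 kb apart.

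Most of the distance between sites in each cluster lay in gaps of over 5 kb. Gaps of over 5 kb were 14 of 43 at Hvcn1 and Ppp1cc, 12 of 34 at Klf13, 11 of 40 at Zfp217 and 9 of 30 at Cxxc5. They held 73.1%, 71.4%, 67.1% and 66.0% of the distance between sites. Such gaps were common elsewhere too: over all clusters of 10 or more sites the upper quartile of the gaps was 5.40 kb. Long gaps take up much of any distance by their size, and their share of the distance was not computed over all clusters. Each cluster thus held stretches of several kilobases without a listed site. Whether the sites were grouped more than random spacing would give was not tested.

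**Figure D2:**
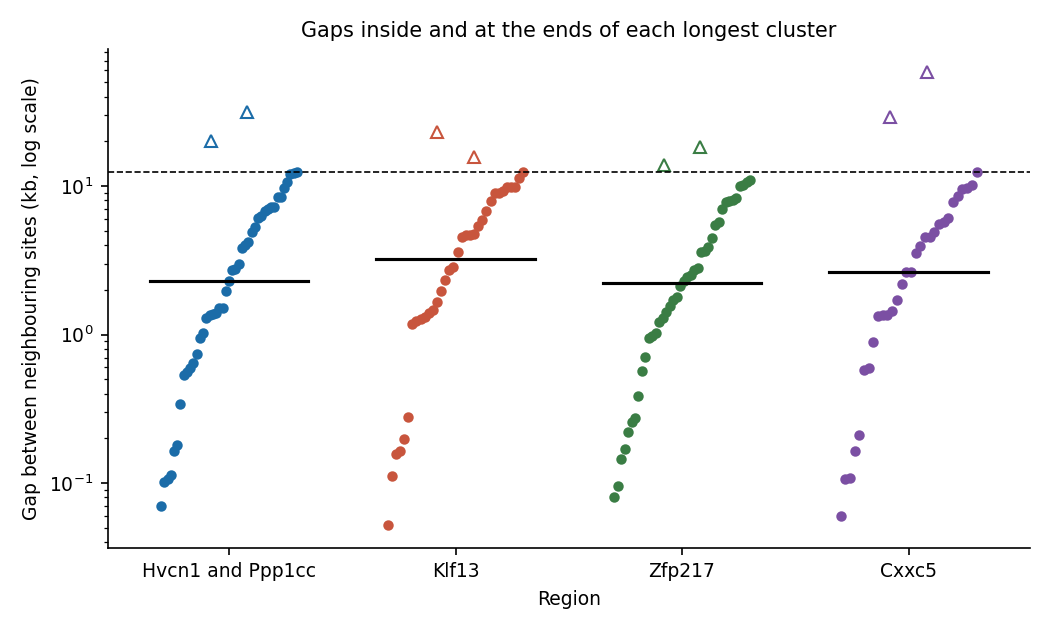
Gaps between neighbouring sites in kb, on a log scale, for each cluster; filled points are the gaps inside the cluster in order of size, horizontal bars are medians, open triangles are the gaps at the 2 ends, and the dashed line is the joining distance of 12.5 kb. The longest gaps inside the clusters reach 12.395, 12.491, 10.973 and 12.426 kb, close under the line in 3 of the 4.

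Among the 656 clusters of 10 or more sites joined at 12.5 kb, these 4 stood out by length and number of sites. Their median gaps and covered shares lay inside the range of the rest. By length they ranked 1 (Hvcn1 and Ppp1cc), 2 (Klf13), 3 (Zfp217) and 7 (Cxxc5), and by number of sites 2, 10, 4 and 20. The median cluster was 51.7 kb long and had 13 sites. By covered share they ranked 392, 561, 309 and 262, with 21.7% covered in the median cluster (quartiles 18.0 and 26.6%). The Klf13 cluster, at 16.2%, lay below the lower quartile. The median of the clusters' median gaps was 2.29 kb (quartiles 1.42 and 3.25 kb), and the values of the 4 clusters all lay between these quartiles. The longest gap in a cluster had a median of 10.2 kb over the 656 clusters (quartiles 8.46 and 11.4 kb). It lay above that upper quartile at Hvcn1 and Ppp1cc (12.395 kb), Klf13 (12.491 kb) and Cxxc5 (12.426 kb), but not at Zfp217 (10.973 kb). Length, number of sites and gaps are measures that the choice of regions used or that follow from it. The ranks by length also hung on the joining distance. In the same order they were 40, 43, 19 and 110 of 1110 clusters at 20 kb. At 25 kb they were 64, 84, 56 and 260 of 1270.

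The other 6 of the 10 longest clusters give a nearer comparison. They were 142.4 to 168.4 kb long, with 32 to 40 sites, 20.1 to 26.1% covered and median gaps of 1.29 to 3.27 kb. The clusters at Hvcn1 and Ppp1cc, Zfp217 and Cxxc5 fell within that range of coverage, and the one at Klf13, at 16.2%, fell below it. The median widths in those 6 ran from 497 to 1015.5 bp and enclosed those of all 4 clusters (786.5, 692, 676 and 825 bp).

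**Figure D3:**
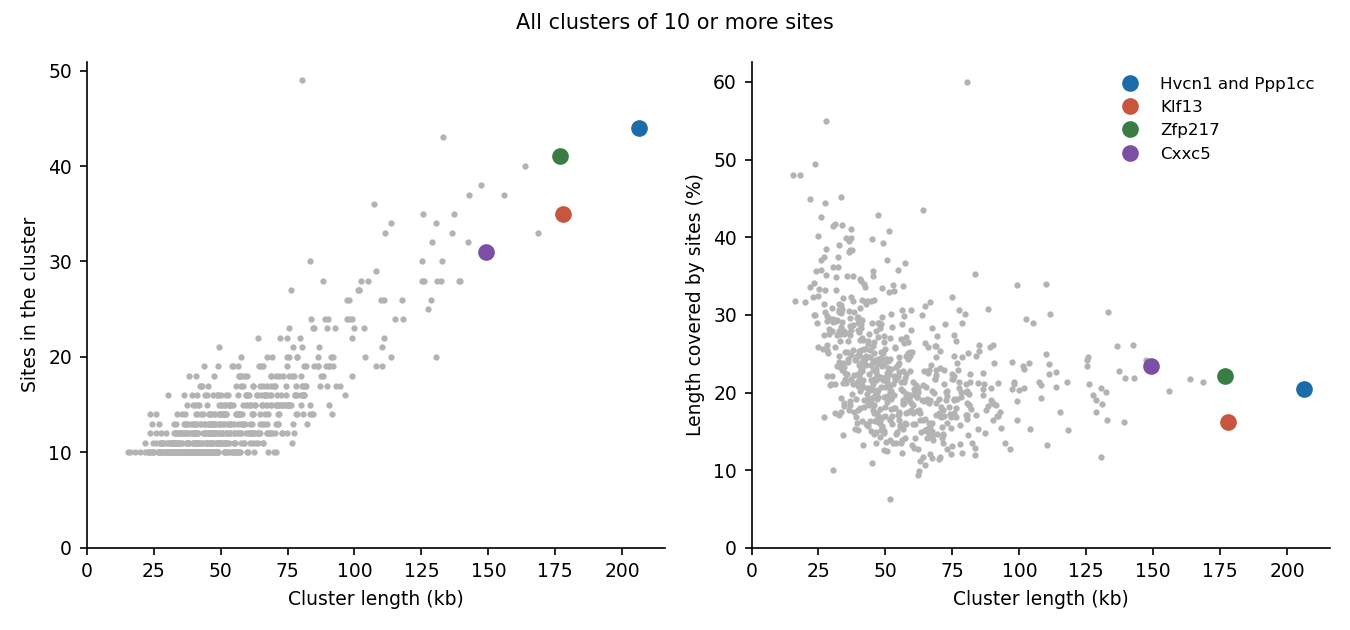
Every cluster of 10 or more sites is 1 point, with its length in kb against its number of sites on the left and against the percentage of its length covered by sites on the right; the coloured points are the 4 clusters. They stand at the right edge of both panels, at coverages of 16.2 to 23.5%.

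The length of 3 of the 4 clusters hung on gaps just under the joining distance. At Hvcn1 and Ppp1cc 3 gaps exceeded 12 kb, at 12.395, 12.328 and 12.133 kb. At Klf13 the gap before the widest site was 12.491 kb, and at Cxxc5 a gap of 12.426 kb separated the wide sites of 1820 and 3175 bp. At Zfp217 the longest gap was 10.973 kb. Of the 656 clusters, 82 (12.5%) held a gap of over 12 kb.

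At a joining distance of 12 kb, which was tried after the values were seen, the Hvcn1 and Ppp1cc cluster fell into 4 pieces, the longest of 110.5 kb with 30 sites, and its rank by length went from 1 to 25. The Cxxc5 cluster fell into 2 pieces, the longer of 72.3 kb with 14 sites, ranking 123. The Klf13 cluster lost its first 5 sites and kept 149.7 kb, ranking 5. The Zfp217 cluster was unchanged at 12 and at 11 kb and ranked 1 at both. Between 12 and 12.5 kb, then, the longest of the 4 changed from Zfp217 to Hvcn1 and Ppp1cc.

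The ends of the clusters also differed in how sharply they closed. The Cxxc5 cluster was the most isolated, with 29.0 kb to the next site before it and 58.7 kb to the next after it, and its length stayed at 149.3 kb at every joining distance from 12.5 to 25 kb. At Hvcn1 and Ppp1cc the end gaps were 20.1 and 31.6 kb. At Klf13 they were 23.1 and 15.7 kb, with 2 sites beyond the former and a group of 4 beyond the latter. At Zfp217 they were 13.9 and 18.2 kb, with a group of 8 sites over 33.0 kb before the cluster and one of 5 sites over 12.6 kb after it. At 14 kb the former joined and the Zfp217 cluster reached 223.7 kb with 49 sites, longer than that at Hvcn1 and Ppp1cc, and at 20 kb it reached 254.4 kb with 54 sites.

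**Figure D4:**
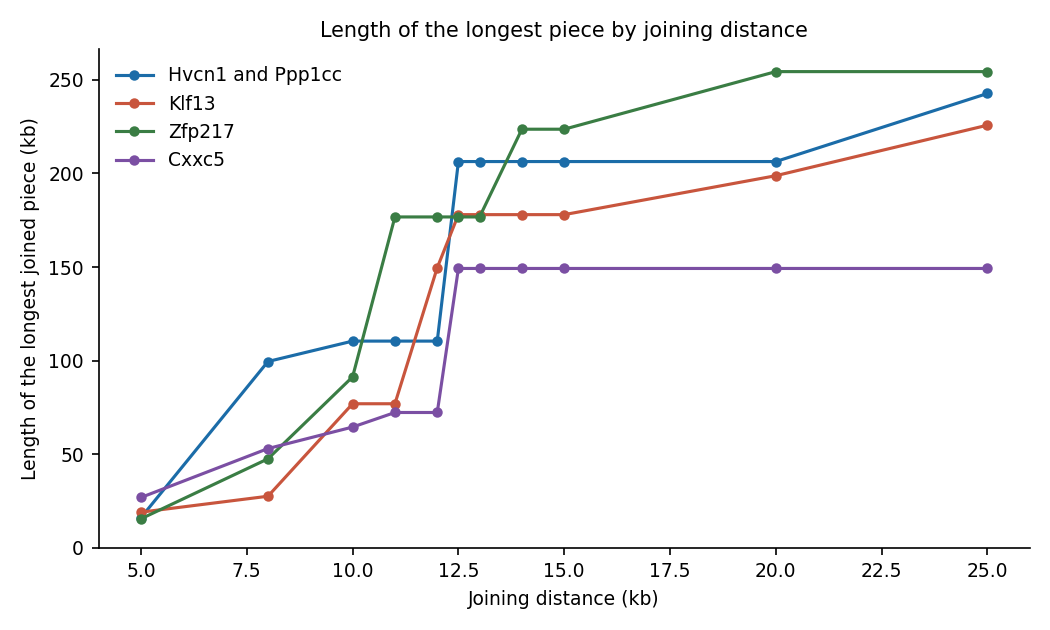
Length in kb of the longest joined piece at each region against the joining distance in kb, with 1 line per region and a point at each distance tried. The Hvcn1 and Ppp1cc line steps from 110.5 to 206.4 kb and the Cxxc5 line from 72.3 to 149.3 kb between 12 and 12.5 kb. The Zfp217 line steps between 10 and 11 kb, to 176.8 kb, and again between 13 and 14 kb, to 223.7 kb. Each line also rises at other distances.

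At shorter joining distances the regions resolved into cores of different kinds. At 8 kb the Hvcn1 and Ppp1cc region kept a piece of 99.5 kb with 28 sites, which ranked 2 among 319 clusters of 10 or more sites. It began at 122625855 and took in the run of 11 sites and the site of 4115 bp. At the same distance the longest pieces were 53.0 kb with 16 sites at Cxxc5, 47.6 kb with 15 sites at Zfp217 and 27.6 kb with 7 sites at Klf13. At 5 kb the longest piece at Cxxc5 had 12 sites over 26.9 kb, from 35987802 to 36014713, and the longest pieces of the other regions had 5 or 6 sites. The run of 11 sites over 14.4 kb at Hvcn1 and Ppp1cc also stayed whole at 5 kb, since no gap inside it exceeded 2 kb. The gaps at its ends, 6.24 and 7.01 kb, set it apart from its neighbours at that distance.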

How the data were processed

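The deposited list gives the chromosome, start and end of each DNaseI site in mm9, with no score, read count or p-value, so depth and site strength are unknown. BWA 0.6.2 and SAMtools are named in the submitters' processing notes; for the peak caller, its threshold and any role of the input, the answer is not given in the sources used here. Regions and genes were chosen with earlier results of these data known. Sites at most 12.5 kb apart were joined, groups of 10 or more were taken as clusters, and the longest cluster touching each region was described. Named sites, by rule, are the 3 widest in each region, cluster ends and flanks, the shortest and longest gaps, and groups of 4 or more sites joined at 2 kb; other sites were named after their values were seen. Coordinates are printed counted from 1 with both ends included, so width counts every base from start to end, and a gap counts the bases between neighbouring sites. With 1 library there was no test between groups. Promoters and gene order are from RefSeq (GRCm38.p6). Alternatives were joining at 5 and 25 kb, only wider sites, merging at 1 kb, and only sites wholly inside a region or in its cluster; joining at 8, 10, 11, 12, 13, 14, 15 and 20 kb was added after seeing the data. Software was matplotlib 3.10.9, scipy 1.17.1, pandas 2.3.3 and numpy 2.4.6 under Python 3.11.15, and the joining was tested on simulated data.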

Additional observations from a re-analysis of the deposited data

How the results depend on the processing

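Of 192 recomputed values, 142 stayed within the interval of the main value (within 1.5 times of it for counts, lengths and coverage), 50 moved further and none reversed; lengths, counts and shares have no sign to reverse. Counting only sites wholly inside the regions or only those of the clusters moved none of 24 values each, and joining at 13, 15 or 25 kb moved none of 12 each. Ranks by length were not among these values, and all 4 were lower at 25 kb than at 12.5 kb. In what follows, values are in the order Hvcn1 and Ppp1cc, Klf13, Zfp217, Cxxc5. Joined at 5 kb, the longest pieces were 16.1, 19.0, 15.5 and 26.9 kb long, with 5, 5, 6 and 12 sites and 45.4, 25.1, 35.2 and 41.1% covered. At 10 kb they were 110.5, 77.0, 91.3 and 64.5 kb long, with 18 sites at Klf13, 25 at Zfp217 and 17 at Cxxc5. At 12 kb the lengths at Hvcn1 and Ppp1cc and at Cxxc5 were 110.5 and 72.3 kb, with 14 sites at Cxxc5. A stricter threshold could not be tried, because the list has no score, and a filter on width does not stand in for it. Only sites wider than the list median of 663 bp gave longest clusters of 77.0, 84.3, 72.6 and 84.4 kb with 15, 11, 11 and 13 sites. By construction that setting left no narrow site (0%), and it left 27, 20 and 29 sites in the first 3 regions, with median widths of 1135, 1088.5 and 1222 bp, median gaps of 5.72, 8.90 and 6.81 kb and, at Zfp217, 34.5% wide sites. Merging sites at most 1 kb apart raised wide sites to 30.3% at Hvcn1 and Ppp1cc and 41.7% at Zfp217, set the median width and gap at Zfp217 to 1199 bp and 3.86 kb, and left narrow sites at 16.7% at Zfp217 and 4.35% at Cxxc5. No paired analysis was possible because the series has 1 analysed library. Depth is unknown, so how many weaker sites a deeper library would add was not tested.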

Other observations

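Sites of the 4 clusters were also looked at by the distance to their nearest neighbour. Of 37 narrow sites, 17 had another site at most 500 bp away (45.9%, exact binomial 95% interval 29.5 to 63.1%). So had 22 of 88 sites of 400 to 1500 bp (25%, 16.4 to 35.4%) and 6 of 26 wide sites (23.1%, 8.97 to 43.6%). In the whole list the shares were 40.6%, 28.0% and 24.7%, each inside the interval of the 4 clusters. At Cxxc5, 4 of the 5 narrow sites had such a neighbour, at Zfp217 6 of 15, at Klf13 4 of 11, and at Hvcn1 and Ppp1cc 3 of 6. Whether such pairs are single regions split by the peak caller was not tested.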
